A study of Mus musculus with 12 samples.

Results

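Red blood cells carry a characteristic set of membrane proteins and are made under the control of a small set of transcription factors, and 9 genes of this kind were examined. Slc4a1 (band 3), Ank1 (ankyrin), Rhag, Ermap and Icam4 encode membrane proteins, Epor encodes the receptor for erythropoietin, and Klf1, Nfe2 and Zfpm1 encode nuclear regulators. All probes bearing 1 of these gene names were taken, which gave 13 of the 41174 probes of the array and 9 of its 27548 gene names. Ank1 had 5 probes and the other genes had 1 each.

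RNA came from cells of CD-1 mouse embryos at embryonic day 7.5, when the first red cells form in the blood islands of the yolk sac. About 300 embryos of 25 litters were pooled, and cells were sorted by 2 surface proteins, Endoglin (gene Eng, a co-receptor of the TGF-beta family) and Flk1 (gene Kdr, a receptor for vascular endothelial growth factor). The 4 fractions were Eng+Flk1+ (both proteins), Eng-Flk1+ (Flk1 alone), Eng+Flk1- (Endoglin alone) and Eng-Flk1- (neither protein), with 3000 cells a sample and 3 samples and arrays a fraction. The embryos carried no mutation or treatment named in the labels, and each fraction is defined by 2 markers alone, so that it can hold several cell types. Every sample came from 1 pool, so p-values here reflect how sorted samples of it varied, which may be technical, and say nothing of the spread between embryos.

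In the red cell membrane, band 3 exchanges chloride for bicarbonate and is tied by ankyrin to the spectrin skeleton under the membrane, while the Rh-associated glycoprotein Rhag passes ammonia and helps to bring the Rh proteins to the surface. Erythropoietin, bound by its receptor, keeps red cell precursors alive. Klf1 is a zinc finger activator of globin and membrane protein genes, Nfe2 is the larger subunit of the factor NF-E2, which binds globin control regions, and Zfpm1 (FOG1) is the partner through which GATA1 acts at many of its targets.

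Levels below are log2 intensities of a spot minus that of the 75th percentile of its array, so that 0 is the level of that percentile and a difference of 1 is a 2-fold difference. Levels of different genes come from different probes and are not set against each other. A difference counted as called when limma's moderated test across all 22724 genes tested gave a Benjamini-Hochberg adjusted p under 0.05. All 9 genes passed the filter for testing, which required some fraction to have the gene well above background on each of its 3 arrays. Spots well above background made up 66.5% to 76.3% on the Eng-Flk1- arrays and 80.2% to 83.3% on the other 9, and no spot was saturated. Arrays of the Eng-Flk1- fraction also agreed least with each other, with correlations across genes of 0.674 to 0.72 against 0.812 to 0.912 within the other fractions. The sort was visible in Kdr, at 1.64 ± 0.18 in Eng+Flk1+ cells and 1.11 ± 0.76 in Eng-Flk1+ cells, against -5.38 ± 1.87 in Eng+Flk1- cells and -6.20 ± 1.56 in Eng-Flk1- cells (SD, n = 3 each). Eng was at 2.10 ± 0.93 in Eng+Flk1+ cells, against 0.49 ± 1.02 in Eng-Flk1+ cells, and at 0.48 ± 0.55 in Eng+Flk1- cells, against -0.49 ± 0.86 in Eng-Flk1- cells (SD, n = 3 each). The arrays overlapped for Eng in both pairs. The lowest Eng+Flk1+ array was at 1.04 and the highest Eng-Flk1+ array at 1.62. Among Flk1 negative cells, the lowest Eng+Flk1- array was at -0.16 and the highest Eng-Flk1- array at 0.13.

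None of the 9 genes was called in any of the 6 comparisons between fractions by limma with Benjamini-Hochberg adjustment. The data hold instead patterns that differed from gene to gene. Band 3 was high on 2 of the 3 Eng-Flk1- arrays. Klf1 was high on all 3 Eng+Flk1- arrays and on 1 array each of Eng+Flk1+ and Eng-Flk1-, and Rhag was highest on the 3 Eng+Flk1+ arrays. With the 1 probe a gene used in the fit, Zfpm1 had the smallest range over the 12 arrays. In these bulk samples, fewer cells that express a gene and less RNA of it per cell cannot be told apart.

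**Figure D1:**
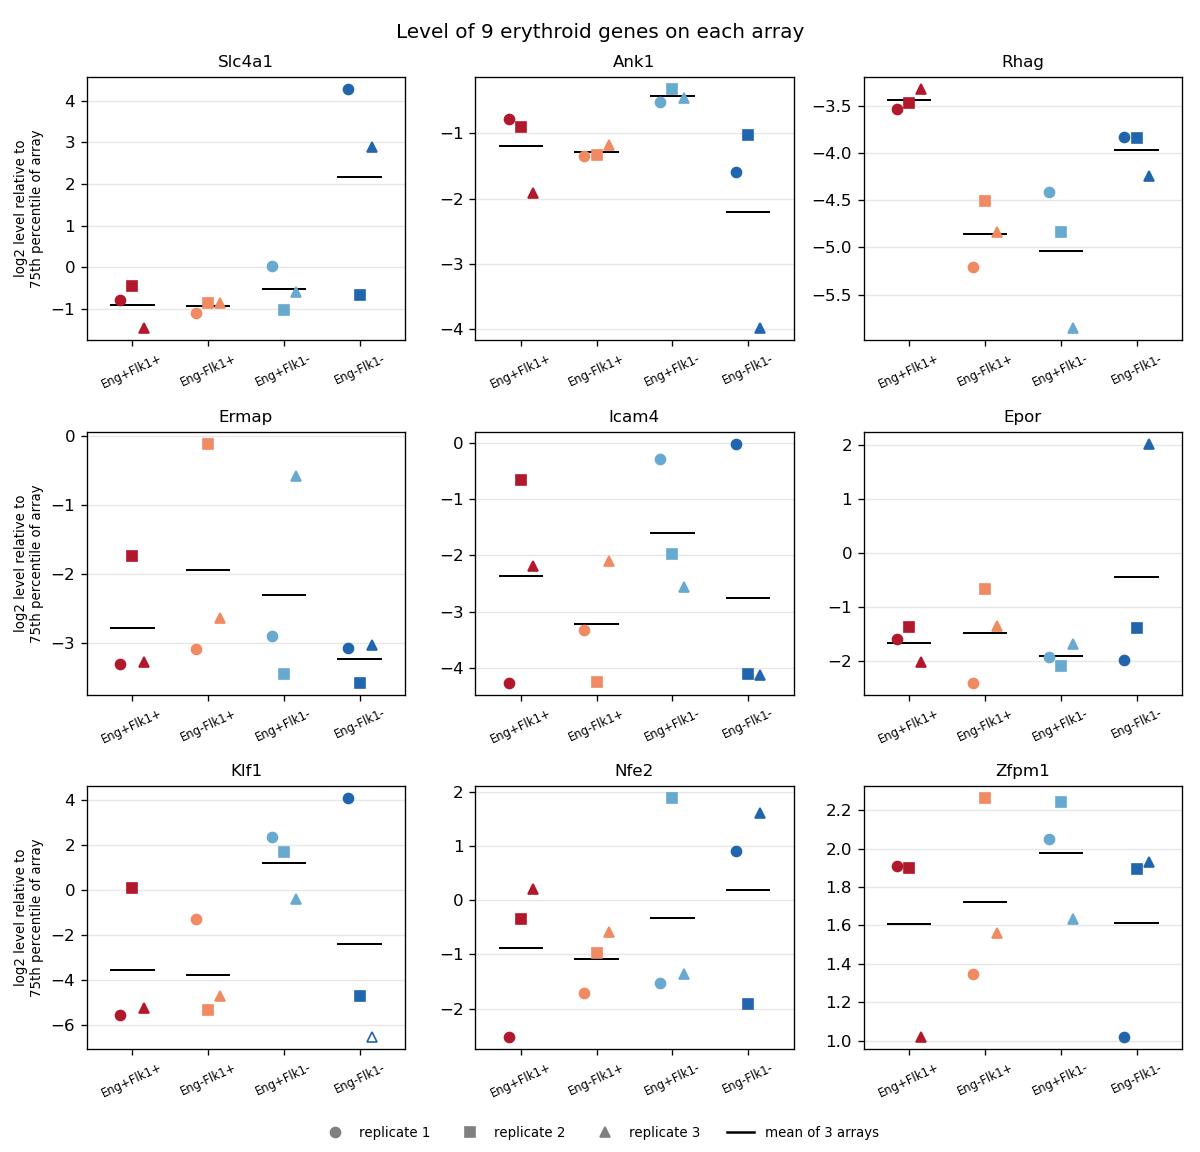
Log2 level of each of the 9 genes (vertical axis, with 0 at the 75th percentile of that array) on the 12 arrays, by fraction (horizontal axis). Symbols mark the replicate, lines are means of 3 arrays, and the 1 open symbol is a spot not well above background. Slc4a1 lies at 4.27 and 2.89 on 2 Eng-Flk1- arrays and at or below 0.04 on the other 10.

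Band 3 (Slc4a1), the anion exchanger of the red cell membrane, had levels of -0.77, -0.46 and -1.46 in Eng+Flk1+ cells, -1.09, -0.86 and -0.85 in Eng-Flk1+ cells, and 0.04, -1.03 and -0.58 in Eng+Flk1- cells. The Eng-Flk1- arrays stood at 4.27, -0.65 and 2.89. Replicates 1 and 3 of Eng-Flk1- thus stood above every other array, and replicate 2 lay within the range of the other fractions. The log2 fold was -3.07 ± 1.00 (SE) in Eng+Flk1+ cells against Eng-Flk1- cells, -3.11 ± 1.00 in Eng-Flk1+ cells against Eng-Flk1- cells, and -2.69 ± 1.00 in Eng+Flk1- cells against Eng-Flk1- cells, with limma adjusted p of 0.169, 0.161 and 0.251. Single Eng-Flk1- arrays decided these values. Without replicate 2, the fold was -4.48 in Eng+Flk1+ cells against Eng-Flk1- cells (limma adjusted p = 0.00287), -4.52 in Eng-Flk1+ cells against Eng-Flk1- cells (0.00278) and -4.1 in Eng+Flk1- cells against Eng-Flk1- cells (0.0046). Without replicate 1 the 3 folds were -2.01, -2.05 and -1.64, in the same order (limma adjusted p of 0.264, 0.24 and 0.37). In order of the means, Eng-Flk1- came first at 2.17 ± 2.54, then Eng+Flk1- at -0.52 ± 0.54, Eng+Flk1+ at -0.90 ± 0.51 and Eng-Flk1+ at -0.94 ± 0.14 (SD, n = 3 each), and each of these neighbours overlapped the next. The 4 arrays of 1 slide, the glass carrier of 4 arrays, were the 3 Eng-Flk1- arrays and replicate 1 of Eng-Flk1+, and within that slide the fold in Eng-Flk1+ cells against Eng-Flk1- cells was -3.26 ± 2.21 (limma adjusted p = 0.949).

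Ankyrin (Ank1) links band 3 to spectrin, and its gene gave another picture. The brightest of its 5 probes had levels of -0.52, -0.33 and -0.46 in Eng+Flk1- cells, above all other arrays. It had -0.78, -0.90 and -1.92 in Eng+Flk1+ cells, -1.34, -1.34 and -1.18 in Eng-Flk1+ cells, and -1.59, -1.03 and -3.98 in Eng-Flk1- cells. The low level of replicate 3 of Eng-Flk1- set much of the fold in Eng+Flk1- cells against Eng-Flk1- cells, which was 1.77 ± 0.68 (limma adjusted p = 0.272) with it and 0.88 (0.36) without it. Eng+Flk1- did not overlap any other fraction for this probe, and the remaining neighbours in the order of the means, Eng+Flk1+, Eng-Flk1+ and Eng-Flk1-, overlapped.

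The 5 Ank1 probes did not share this pattern. Of these, 3 span more genome than their own length and so cross introns, and they are shown because they read neighbouring stretches of the same transcript and their folds differed in sign (build mm8, plus strand, as the scanner files place them at chr8:24586138-24586483, chr8:24598177-24601159 and chr8:24605763-24606757).
Ank1 probe at transcript base 4555: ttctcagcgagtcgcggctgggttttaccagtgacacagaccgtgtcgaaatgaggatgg
Ank1 probe at transcript base 5375: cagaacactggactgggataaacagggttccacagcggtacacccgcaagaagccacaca
Ank1 probe at transcript base 5728: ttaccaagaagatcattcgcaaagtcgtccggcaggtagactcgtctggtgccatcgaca
The probe at base 5728 is the one described above. In Eng+Flk1- cells against Eng-Flk1- cells the probe at base 4555 gave a log2 fold of 0.27 ± 0.43 and the probe at base 5375 gave -0.31 ± 0.55, each from a fit of all probes by limma (adjusted p of 0.811 and 0.83). The probe at base 7916, nearer the end of the transcript, gave -0.79 ± 0.93 (0.733), with 2 high arrays, replicate 2 of Eng+Flk1+ at 0.53 and replicate 1 of Eng-Flk1- at -0.23. The probe at base 6805 was well above background on 6 of the 12 arrays and on all 3 arrays of no fraction, and was not tested. The separation of Eng+Flk1- from all other fractions was seen with 1 of the 4 tested probes.

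**Figure D2:**
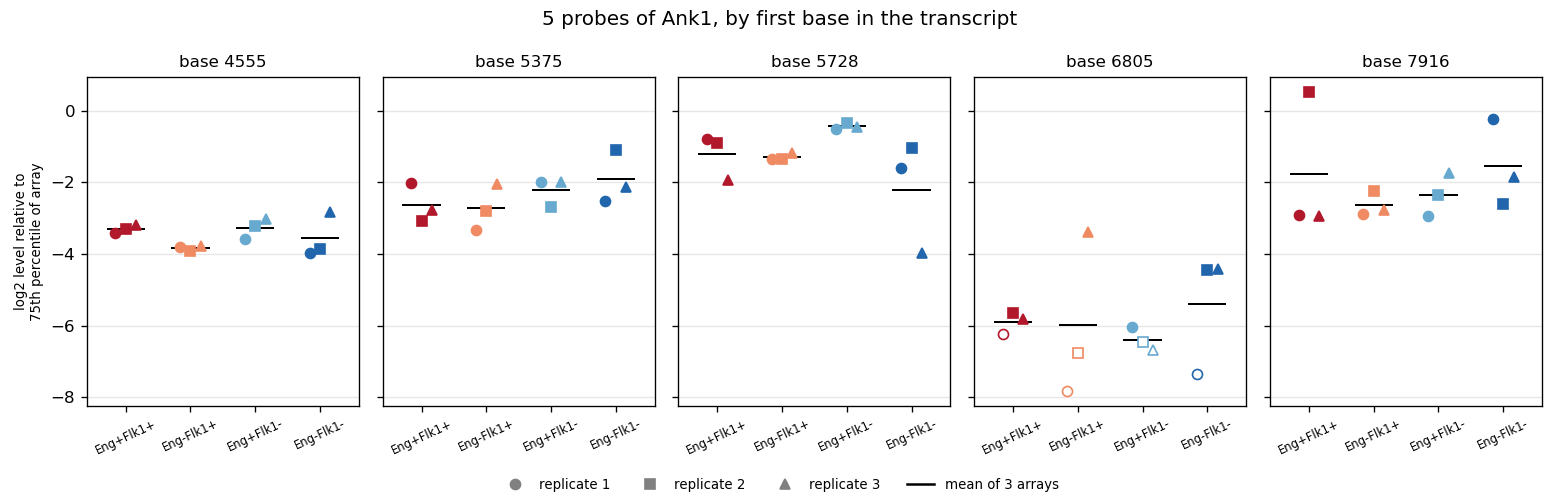
Log2 level (vertical axis, with 0 at the 75th percentile of that array) of the 5 Ank1 probes on the 12 arrays by fraction, with panels ordered by the first base of the probe in the transcript. Open symbols are spots not well above background, lines are means of 3 arrays. The 3 Eng+Flk1- arrays sit above all others at base 5728 and not at the other 4 positions.

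Rhag was the 1 gene whose Eng+Flk1+ arrays all stood above those of every other fraction. Its levels were -3.53, -3.47 and -3.32 in Eng+Flk1+ cells, -5.21, -4.51 and -4.84 in Eng-Flk1+ cells, -4.41, -4.84 and -5.86 in Eng+Flk1- cells, and -3.82, -3.84 and -4.25 in Eng-Flk1- cells. Ranked by the mean of these scaled levels, the fractions stood in the order Eng+Flk1+, then Eng-Flk1-, then Eng-Flk1+ and last Eng+Flk1-. Only the last 2 of these overlapped as neighbours. Rhag was dim, with signals before scaling of 11.5 to 53.2, where the 75th percentiles of the arrays were 244 to 664. Before scaling, the Eng+Flk1+ arrays (46.0, 47.8 and 53.2) still stood above all others. The Eng-Flk1- signals (25.5, 31.0 and 12.9) overlapped those of Eng-Flk1+ (17.9, 26.1 and 20.3), so the separation of these fractions rests on the scaling. The log2 fold was 1.41 ± 0.44 (SE) in Eng+Flk1+ cells against Eng-Flk1+ cells (limma adjusted p = 0.68) and 1.59 ± 0.44 in Eng+Flk1+ cells against Eng+Flk1- cells (0.278). Against Eng-Flk1-, it was 0.53 ± 0.44 in Eng+Flk1+ cells (0.601), -1.06 ± 0.44 in Eng+Flk1- cells (0.309) and -0.88 ± 0.44 in Eng-Flk1+ cells (0.327). The fold in Eng+Flk1- cells was -0.65 without replicate 3 of that fraction and -1.82 after quantile normalization.

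The mean of Rhag was thus higher with Endoglin than without it among Flk1 positive fractions, and lower among Flk1 negative ones. The test of that difference, the interaction, gave 2.48 ± 0.63 on the log2 scale with an unadjusted p of 0.00246 and a limma adjusted p of 0.164, so it failed the correction. Over 24 alternatives the interaction ran from 1.30, with a normexp background correction, to 3.32, with quantile normalization. Rhag had a small spread, with an SD within fractions of 0.43, against a median of 0.96 over all genes tested. The size of its folds depended on the background correction: after a normexp correction the fold was 0.63 in Eng+Flk1+ cells against Eng-Flk1+ cells and 0.48 in Eng+Flk1+ cells against Eng+Flk1- cells. Within 1 slide that held both fractions, the fold was 1.17 ± 0.52 in Eng+Flk1+ cells against Eng-Flk1+ cells (2 arrays each), and within another it was 1.71 ± 0.75 in Eng+Flk1+ cells (1 array) against Eng+Flk1- cells (3 arrays), with limma adjusted p of 0.896 and 0.569.

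Ermap, a membrane protein of the immunoglobulin superfamily found on erythroid cells, was high on single arrays. Its levels were -3.30, -1.74 and -3.28 in Eng+Flk1+ cells, -3.09, -0.11 and -2.63 in Eng-Flk1+ cells, -2.90, -3.45 and -0.58 in Eng+Flk1- cells, and -3.08, -3.58 and -3.03 in Eng-Flk1- cells. Replicate 2 of both Flk1 positive fractions and replicate 3 of Eng+Flk1- stood out, and all neighbours in the order of the means, from Eng-Flk1+ through Eng+Flk1- and Eng+Flk1+ to Eng-Flk1-, overlapped. The difference with the lowest p was 1.29 ± 0.91 in Eng-Flk1+ cells against Eng-Flk1- cells (limma adjusted p = 0.477). It was 0.37 without replicate 2 of Eng-Flk1+, and 0.14 ± 0.87 within the slide that held both fractions.

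Icam4, an adhesion molecule that binds integrins and in humans carries the LW blood group, varied between arrays of each fraction. It had levels of -4.27, -0.65 and -2.18 in Eng+Flk1+ cells, -3.33, -4.26 and -2.09 in Eng-Flk1+ cells, -0.29, -1.97 and -2.56 in Eng+Flk1- cells, and -0.01, -4.11 and -4.14 in Eng-Flk1- cells. The 3 highest arrays came from 3 fractions. By their means the order was Eng+Flk1-, then Eng+Flk1+, Eng-Flk1- and last Eng-Flk1+, with overlap between all neighbours. The lowest p was that of Eng-Flk1+ against Eng+Flk1- cells, at -1.62 ± 1.25 (limma adjusted p = 1), and at -0.97 without replicate 1 of Eng+Flk1-.

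The erythropoietin receptor gene Epor was high on 1 array. Its levels were -1.58, -1.37 and -2.01 in Eng+Flk1+ cells, -2.39, -0.66 and -1.35 in Eng-Flk1+ cells, -1.92, -2.08 and -1.67 in Eng+Flk1- cells, and -1.97, -1.38 and 2.03 in Eng-Flk1- cells. Replicate 3 of Eng-Flk1- was the high array, and the other 2 of that fraction lay within the range of the rest. Eng-Flk1- had the highest mean, followed by Eng-Flk1+, then Eng+Flk1+ and last Eng+Flk1-, and all neighbours overlapped. The fold in Eng+Flk1- cells against Eng-Flk1- cells was -1.45 ± 0.90 (limma adjusted p = 0.496), -0.22 without that array and -2.22 without replicate 1 of Eng-Flk1-.

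Among the regulators, Klf1 varied widely between arrays of a fraction. Its levels were -5.56, 0.12 and -5.27 in Eng+Flk1+ cells, -1.28, -5.36 and -4.72 in Eng-Flk1+ cells, and 2.35, 1.69 and -0.38 in Eng+Flk1- cells. On the Eng-Flk1- arrays they were 4.1, -4.71 and -6.56, and the last of these was not well above background. Among the arrays where it was well above background, Klf1 lay between -5.56 and 4.1. Its SD within fractions of 3.52, which includes the spot not well above background, was larger than that of 99.8% of the genes tested. The Eng+Flk1- arrays were all high, while in each of the other 3 fractions 1 array stood far above its other 2.

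The fold of Klf1 was -5.01 ± 2.52 (SE) in Eng-Flk1+ cells against Eng+Flk1- cells, whose arrays did not overlap (limma adjusted p = 1), and -4.79 ± 2.52 in Eng+Flk1+ cells against Eng+Flk1- cells (0.888). In Eng+Flk1- cells against Eng-Flk1- cells it was 3.61 ± 2.52 (0.544), with an Eng-Flk1- range that enclosed all Eng+Flk1- arrays. Replicate 3 of Eng+Flk1+ shared a slide with the 3 Eng+Flk1- arrays, and within it the fold was -6.49 ± 1.23 in Eng+Flk1+ cells against Eng+Flk1- cells (limma adjusted p = 0.27). In the order of the means, Eng+Flk1- (1.22 ± 1.42), Eng-Flk1- (-2.39 ± 5.70), Eng+Flk1+ (-3.57 ± 3.20) and Eng-Flk1+ (-3.79 ± 2.20; SD, n = 3 each), each overlapped its neighbour.

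Nfe2 had levels of -2.53, -0.34 and 0.22 in Eng+Flk1+ cells, -1.71, -0.98 and -0.59 in Eng-Flk1+ cells, -1.53, 1.89 and -1.36 in Eng+Flk1- cells, and 0.91, -1.92 and 1.61 in Eng-Flk1- cells. High arrays were replicates 1 and 3 of Eng-Flk1- and replicate 2 of Eng+Flk1-. The means ran from Eng-Flk1- at the top through Eng+Flk1- and Eng+Flk1+ to Eng-Flk1+, and all neighbours overlapped. The difference with the lowest p was -1.29 ± 1.15 in Eng-Flk1+ cells against Eng-Flk1- cells (limma adjusted p = 0.576). Without replicate 2 of Eng-Flk1- it was -2.35, and without replicate 3 it was -0.59. Replicates 1 and 3 of Eng-Flk1- were also the 2 arrays on which band 3 was high.

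Zfpm1, the GATA1 partner, had levels of 1.91, 1.90 and 1.02 in Eng+Flk1+ cells, 1.35, 2.26 and 1.56 in Eng-Flk1+ cells, 2.05, 2.24 and 1.63 in Eng+Flk1- cells, and 1.02, 1.89 and 1.93 in Eng-Flk1- cells. All 12 arrays lay within 1.25 log2 units, and the fractions overlapped throughout, with the highest mean in Eng+Flk1- cells and then Eng-Flk1+ before the other two. Its difference with the lowest p was -0.37 ± 0.46 in Eng+Flk1+ cells against Eng+Flk1- cells (limma adjusted p = 0.999). It was -0.07 without replicate 3 of Eng+Flk1+, -0.23 without replicate 2 of Eng+Flk1- and -0.96 with the slide as a fixed block.

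Counted over the 9 genes, none was called by limma in Eng+Flk1+ cells against Eng-Flk1+ cells, where 0.0264% of all genes were called, and 1 had an unadjusted p under 0.05 (4.78% of all genes). None was called in Eng+Flk1- cells against Eng-Flk1- cells (1.46% of all genes), with 3 at an unadjusted p under 0.05 (14.4%). None was called in Eng-Flk1+ cells against Eng-Flk1- cells (1.91%), with 1 at an unadjusted p under 0.05 (17.7%). The same counts by limma were 0 and 1 in Eng+Flk1+ cells against Eng+Flk1- cells (0.295% and 6.6% of all genes), 0 and 1 in Eng+Flk1+ cells against Eng-Flk1- cells (2.36% and 15.5%), and 0 and 0 in Eng-Flk1+ cells against Eng+Flk1- cells (0.101% and 5.37%). For the interaction they were 0 and 1 by limma (0.273% and 10.5%).

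The arrays of the 2 fractions did not overlap for 1 gene in Eng+Flk1+ cells against Eng-Flk1+ cells (Rhag, against 13.7% of all genes) and for 2 in Eng+Flk1- cells against Eng-Flk1- cells (Rhag and Ank1, 19%). They did not overlap for 2 in Eng-Flk1+ cells against Eng-Flk1- cells (Slc4a1 and Rhag, 22.1%) and for 2 in Eng+Flk1+ cells against Eng+Flk1- cells (Rhag and Ank1, 15.1%). The count was 1 in Eng+Flk1+ cells against Eng-Flk1- cells (Rhag, 18%) and 2 in Eng-Flk1+ cells against Eng+Flk1- cells (Klf1 and Ank1, 15.7%). These counts of 1 or 2 of 9 were near the background of all genes. The median fold over the 9 genes lay between -0.88, in Eng-Flk1+ cells against Eng-Flk1- cells, and 0.36, in Eng+Flk1- cells against Eng-Flk1- cells, where the medians of all genes were -0.13 and -0.06.

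**Figure D3:**
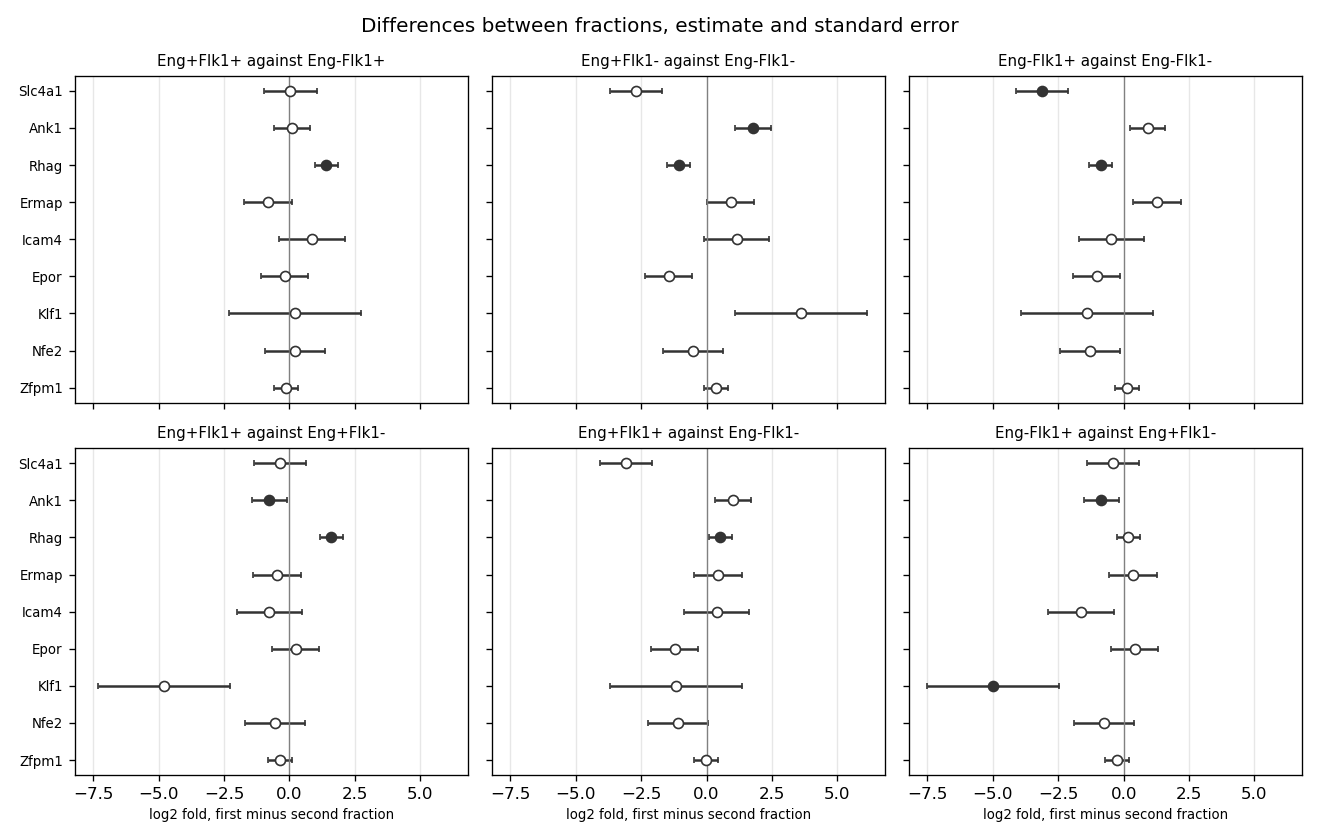
Log2 fold (horizontal axis, first minus second fraction of the panel title) of the 9 genes in the 6 comparisons, with bars of 1 standard error from the fit of all arrays. Filled symbols mark genes whose 2 fractions did not overlap. The long bars of Klf1 come from its SD of 3.52 within fractions, and the short ones of Rhag and Zfpm1 from SDs of 0.43 and 0.46.

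Some arrays were high for several of the 9 genes and others for none. Counting a gene as high where it stood at least 2 log2 units above its own median over the 12 arrays, replicate 1 of Eng-Flk1- was high for Slc4a1, Klf1 and Icam4, and replicate 3 was high for Slc4a1, Epor and Nfe2. Replicate 2 of Eng-Flk1- was high for none. The 3 Eng+Flk1- arrays were each high for 2 genes, always Klf1 with 1 other, which was Icam4, Nfe2 or Ermap. In the Flk1 positive fractions, replicate 2 of Eng+Flk1+ was high for Klf1, replicate 2 of Eng-Flk1+ was high for Ermap, and the other 4 arrays were high for none. The share of all genes that passed this cutoff on each array was not counted, so these counts have no background beside them. A fixed cutoff also favours genes of wide spread such as Klf1. Rhag, Ank1 and Zfpm1 reached it on no array, with highest deviations of 1.01, 0.78 and 0.37.

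The promoters of Klf1 and Icam4, which shared high arrays, and of Rhag, whose Eng+Flk1+ arrays stood above all others, were read from RefSeq (build GRCm38.p6, 250 bases before the annotated start, all on the plus strand, at chr8:84901732-84901981, chr9:21029182-21029431 and chr17:40810899-40811148). Capitals mark the words AGATAA or TGATAA or AGATAG or TGATAG bound by GATA factors, the word CACACCC of the CACCC box bound by Klf1 and the word TGAGTCA of NF-E2, each on either strand, and no 2 marked words overlap.
Klf1: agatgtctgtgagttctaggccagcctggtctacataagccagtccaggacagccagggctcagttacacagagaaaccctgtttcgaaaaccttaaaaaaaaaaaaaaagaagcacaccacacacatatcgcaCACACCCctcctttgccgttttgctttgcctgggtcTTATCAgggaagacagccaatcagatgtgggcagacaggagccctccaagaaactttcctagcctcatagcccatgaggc
Icam4: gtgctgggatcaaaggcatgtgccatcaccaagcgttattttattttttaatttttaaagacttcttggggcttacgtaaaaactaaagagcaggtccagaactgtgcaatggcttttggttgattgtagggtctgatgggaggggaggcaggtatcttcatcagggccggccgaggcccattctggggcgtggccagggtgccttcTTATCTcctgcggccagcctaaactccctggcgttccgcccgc
Rhag: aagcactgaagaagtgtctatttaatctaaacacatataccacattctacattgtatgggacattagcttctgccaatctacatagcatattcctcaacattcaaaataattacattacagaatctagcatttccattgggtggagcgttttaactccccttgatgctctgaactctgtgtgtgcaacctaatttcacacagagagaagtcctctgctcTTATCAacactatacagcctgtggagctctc
A GATA word was found in the promoters of 5 of the 6 genes that the table holds, Klf1, Icam4, Rhag, Epor and Ermap, and not in that of Zfpm1. Of all 32851 promoters of the table, 26.5% held 1 in the same window. The word lay 80 bases before the start in Klf1, 43 in Icam4, 31 in Rhag, 54 in Epor and 67 in Ermap, counted from its first base on the gene's strand, and on the opposite strand in each case. The CACCC box word was found in Klf1 alone, 116 bases before the start (6.93% of all promoters), and the NF-E2 word in none (4.46%). A match is a description of the sequence and shows no binding.

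Among other genes of the same pathways, calls fell among regulators and globins, and none among the membrane, signalling and heme lists. Over the 6 comparisons, limma called 0.0264% to 2.36% of all genes, and 4.78% to 17.7% had an unadjusted p under 0.05. Of 20 other membrane and skeleton genes, 18 were tested and none was called by limma in any of the 6 comparisons, with 0 to 4 at an unadjusted p under 0.05. Their median log2 fold ran from -0.51 to 0.23 over the comparisons, beside -0.13 to 0.10 for all genes. The 2 with the lowest p were Rhd, the Rh protein that Rhag accompanies, and Aqp1, the water channel. Rhd was at -2.25 ± 0.58 in Eng+Flk1+ cells and was not well above background on any Eng-Flk1- array. It was well above background on 2 arrays each of Eng-Flk1+ and Eng+Flk1-. On replicates 1 and 2 of Eng+Flk1- it stood at -1.61 and -1.68, above each Eng+Flk1+ array. Aqp1 passed background on each Eng+Flk1+ array and on none of the other 9. Its Eng+Flk1+ levels were -5.63, -1.79 and -4.92, and the lowest of these lay below replicate 3 of Eng-Flk1-, at -5.51. Both genes entered the test only through the Eng+Flk1+ arrays, on each of which they were well above background, so no test of that fraction is given for them.

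Of 15 genes of erythropoietin and stem cell factor signalling, 14 were tested and none was called by limma, with 0 to 3 at an unadjusted p under 0.05 and median folds of -0.57 to 0.44. Kit, the stem cell factor receptor, was at -0.99 ± 1.04 in Eng+Flk1+ cells against -4.02 ± 0.66 in Eng+Flk1- cells (limma adjusted p = 0.335), and Socs3, an inhibitor of cytokine signalling, at -3.79 ± 0.57 in Eng+Flk1+ cells against -1.82 ± 1.07 in Eng+Flk1- cells (0.287; SD, n = 3 each). Of 23 genes of heme synthesis and iron uptake, 22 were tested and none was called by limma, with 0 to 7 at an unadjusted p under 0.05 and median folds of -0.02 to 0.32. Abcb10, a mitochondrial transporter, was well above background on no Eng-Flk1- array and stood at -2.39 ± 0.81 in Eng-Flk1+ cells, and Ftl1, the ferritin light chain, was at 4.70 ± 0.69 in Eng+Flk1+ cells against 5.92 ± 0.34 in Eng-Flk1- cells (limma adjusted p = 0.205; SD, n = 3 each).

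Among other regulators of blood and vessel formation, several were higher in Flk1 positive cells. Of 23 tested, 3 were higher in Eng-Flk1+ cells against Eng-Flk1- cells by limma, namely Tal1, Hhex and Etv2. In Eng+Flk1+ cells against Eng-Flk1- cells 6 were higher, among them the same 3 and Fli1, and none was lower in any comparison. Of these 6, Gfi1, named after its values were seen, was well above background on 5 of the 12 arrays and so entered the test through 1 fraction alone. Tal1, a master regulator of blood formation, was at 3.65 ± 0.32 in Eng+Flk1+ cells and 3.46 ± 0.43 in Eng-Flk1+ cells, against -0.32 ± 1.58 in Eng-Flk1- cells (SD, n = 3 each; limma adjusted p of 0.0181 and 0.0256). Etv2, which specifies blood and vessel precursors, was also higher in Eng+Flk1+ cells and in Eng-Flk1+ cells against Eng+Flk1- cells, with log2 folds of 2.96 ± 0.51 and 4.51 ± 0.51 (limma adjusted p of 0.0497 and 0.0113), and was the 1 regulator of the list called there. The count of regulators higher in Eng+Flk1+ cells against Eng+Flk1- cells moved under 22 of 26 alternatives, between 0 and 6. The median fold of the list in Eng+Flk1+ cells against Eng-Flk1- cells was 1.19, beside -0.06 for all genes. With the slide as a fixed term, no regulator of the list was called, but slide and fraction were nearly confounded, so this fit cannot separate them well.

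The summed level of the globins, the main product of red cells, was higher on each Eng-Flk1- array than on any other array, also on replicate 2, on which none of the 9 genes was high. There the sum mainly reflects the 2 brightest probes, those of Hba-a1 and Hba-a2 (means of 8.38 and 7.40). Single genes could differ: Hbb-bh1 was at 2.56 on replicate 1 of Eng-Flk1- and at 3.07 on replicate 2 of Eng+Flk1-. Of the 7 genes found of 8 listed, 5 were lower by limma in Eng+Flk1+ cells against Eng-Flk1- cells, 5 in Eng-Flk1+ cells against Eng-Flk1- cells and 4 in Eng+Flk1- cells against Eng-Flk1- cells. The globin genes Hbb-y and Hba-x were tested and called in no comparison. The alpha globin gene Hba-a1 was at -1.84 ± 0.20 in Eng+Flk1+ cells, -1.22 ± 1.57 in Eng-Flk1+ cells and 0.83 ± 2.47 in Eng+Flk1- cells, against 8.38 ± 0.49 in Eng-Flk1- cells (SD, n = 3 each). The embryonic beta-type globin Hbb-bh1 was at 2.66 ± 0.38 in Eng+Flk1- cells against 3.83 ± 1.17 in Eng-Flk1- cells (limma adjusted p = 0.414), and was lower in Eng+Flk1+ cells against Eng+Flk1- cells, at a log2 fold of -4.1 ± 0.61 (limma adjusted p = 0.0235), a call that ended under 8 of 26 alternatives. Near-identical globin copies may share probes, so the gene behind a globin signal is uncertain. With the slide as a fixed term, which was nearly confounded with fraction, no globin was called in any of these comparisons.

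**Figure D4:**
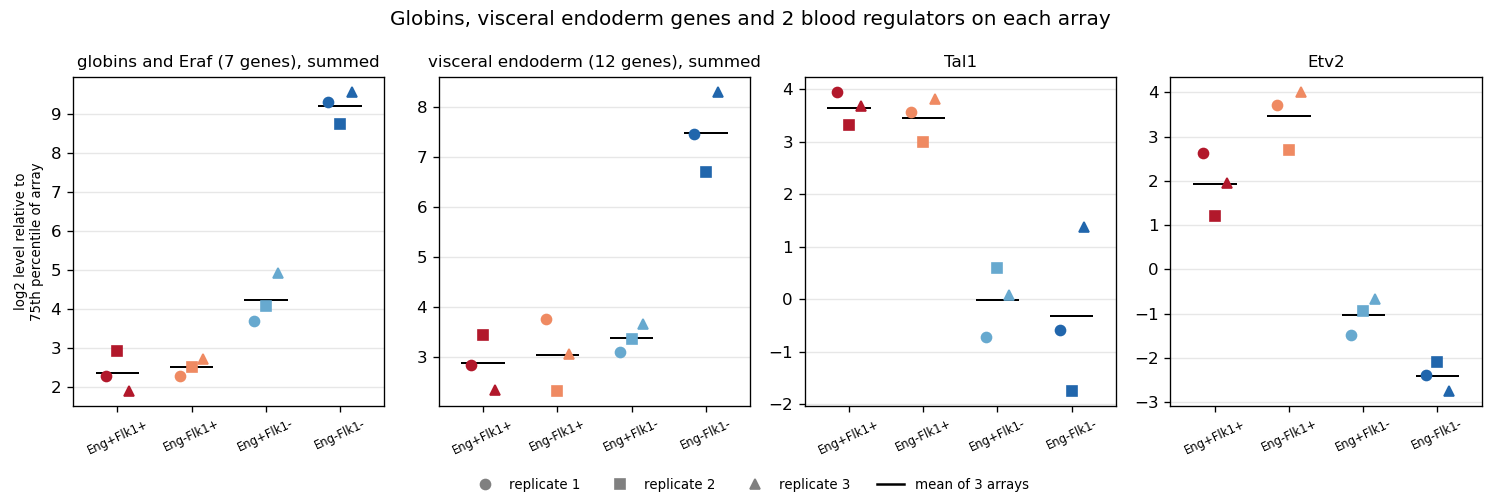
Log2 summed level of the 7 globin list genes and of 12 visceral endoderm genes, and log2 levels of Tal1 and Etv2 (vertical axes, with 0 at the 75th percentile of that array), on the 12 arrays by fraction, with lines at means of 3 arrays. The 3 Eng-Flk1- arrays lie at 8.73 to 9.55 for the globin sum, there mainly Hba-a1 and Hba-a2, against 1.91 to 4.93 on the other arrays.

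Markers of other cell types differed between the same fractions, and their part in the levels of the 9 genes was not tested. Of 12 visceral endoderm genes 11 were tested and, against Eng-Flk1- cells, limma found 6 lower in Eng+Flk1+ cells, 5 in Eng-Flk1+ cells and 6 in Eng+Flk1- cells, with a log2 summed level of 2.32 to 3.74 on the arrays of these 3 fractions against 6.70 to 8.30 on the Eng-Flk1- arrays. Of 12 endothelial genes, 6 were higher in Eng+Flk1+ cells against Eng+Flk1- cells and 7 in Eng+Flk1+ cells against Eng-Flk1- cells, with summed levels of 5.53 to 6.51 in Eng+Flk1+ cells, against 2.13 to 2.70 in Eng+Flk1- cells and 2.19 to 3.21 in Eng-Flk1- cells. The list for adult red cells, which could mark maternal blood, shares 4 globin entries with the list above, 3 of them on the array, and had a summed level of 3.10 to 4.64 in Eng+Flk1- cells against 8.63 to 9.50 in Eng-Flk1- cells. On the Eng-Flk1- arrays this sum again mainly reflects Hba-a1 and Hba-a2, so it is no separate sign of adult red cells. Of its 6 genes tested, limma found 3 lower in Eng+Flk1- cells against Eng-Flk1- cells, and these were the 3 shared globins.

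No gene of the 9 megakaryocyte and 8 white blood cell markers was called by limma in the 6 comparisons, with 7 and 8 tested and 0 to 2 of each at an unadjusted p under 0.05. In Eng+Flk1- cells against Eng-Flk1- cells, where 1.46% of all genes were called, 3 of 10 trophoblast markers and 2 of 8 mesoderm markers were higher by limma. Of 7 epiblast markers, 1 was lower there. Trophoblast markers had a summed level of 4.51 to 4.88 on the Eng+Flk1- arrays, on all of which Klf1 was high, against 2.14 to 2.95 on the Eng-Flk1- arrays. Replicate 1 of Eng-Flk1-, with the highest Klf1 of the 12 arrays, had the lowest of these sums, 2.14. A link of Klf1 with trophoblast or any other markers was not tested. Mesoderm markers were at 4.07 to 4.46 in Eng+Flk1- cells against 2.29 to 2.99 in Eng-Flk1- cells, and epiblast markers at 4.12 to 4.51 in Eng+Flk1- cells against 5.02 to 6.69 in Eng-Flk1- cells.

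The genes most like each of the 9 were found by the root mean square difference of log2 levels over the 12 arrays, after each gene was centred on its own mean. Slc4a1 was most like Krt6b and Vcam1 (0.63 and 0.64), Ank1 like Usp24 and Cspg4 (0.33 and 0.36), Rhag like Hcrtr1 and Akr1c21 (0.38 and 0.40), and Ermap like Pold4 and Cst8 (0.40 and 0.46). Icam4 was most like Slitrk6 and Kdm8 (0.85 and 0.90), Epor like Ube2g1 and Ccl17 (0.39 for both), Nfe2 like Zfp354b and Olfr784 (0.75 and 0.78), and Zfpm1 like Ppfia2 and Gna15 (0.27 for both). Klf1 lay furthest from its nearest genes, with Pdss1 at 2.02 and Pth1r at 2.09 beside its own SD of 3.66 over the 12 arrays. The nearest genes of Icam4, Nfe2 and Zfpm1 lay at 0.85, 0.75 and 0.27 beside SDs of 1.57, 1.42 and 0.42. Set against its own SD, the match of Klf1 was thus no exception. None of the 9 genes was among the 2 nearest of another. Icam4 was the nearest of the other 8 to Klf1, at 2.43. Seen from Icam4, 84.9% of the genes lay nearer than Klf1, whose wide spread sets it far from most genes. Seen from Klf1, 24.3% of the genes lay nearer than Slc4a1, at 3.41, so no larger share lay nearer than Icam4.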

How the data were processed

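The deposited scanner files hold intensity per spot, read with Agilent Feature Extraction 10.5.1.1 with probes placed on build mm8, per the file headers. Per the labels' protocols, cDNA was amplified by a global PCR method and 250 ng were labelled with Cy3, so small early differences may be enlarged. The authors' deposited table holds intensity scaled to each array's median and was an alternative, and its 12 flag columns were not used. Control spots (1639 of 45018) and outlier flags were left out, log2 was taken, the 75th percentile of each array was subtracted, and each gene was represented by its brightest probe. Names were updated with RefSeq. The 4 fractions were fitted in limma 3.58.1 (R 4.3.3) with Benjamini-Hochberg adjustment over 22724 genes, and tested on simulated data. Errors of levels are SD, and errors of folds are SE.

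The genes described are the 9 members with every probe, Eng and Kdr, up to 4 called genes or else the 2 with the lowest p of each pathway list, and the 2 genes most like each member. Members and lists were chosen with earlier results of these data known. Alternatives covered background correction, scaling, filters, probes, slide, replicate number, array weights and each array left out. With 3 arrays a fraction, the number of arrays limits the precision.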

Additional observations from a re-analysis of the deposited data

Results flagged for a closer look

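The beta globin gene Hbb-bt is given here because its difference between cells sorted with and without Endoglin was not the same in Flk1 positive and Flk1 negative cells, by the test of that difference. Among Flk1 positive cells its log2 level was 1.62 ± 0.52 with Endoglin (Eng+Flk1+) against 1.61 ± 0.25 without it (Eng-Flk1+; SD, n = 3 each). Among Flk1 negative cells it was 2.10 ± 0.17 with Endoglin (Eng+Flk1-) against 5.67 ± 0.33 without it (Eng-Flk1-; SD, n = 3 each). The interaction, the first difference minus the second, was 3.58 ± 0.57 on the log2 scale (SE, limma adjusted p = 0.0347). With the slide as a fixed block, which was nearly confounded with fraction, limma called 0 genes for the interaction.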

How the results depend on the processing

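With the slide as a random block, whose estimated correlation was negative (-0.19), 2 members (Ank1 and Slc4a1) were called in Eng+Flk1- against Eng-Flk1- and 1 (Slc4a1) in Eng+Flk1+ against Eng-Flk1-. Leaving out each array in turn gave 0 to 1 called members in the 3 comparisons with Eng-Flk1- and in the interaction, and the 1 was Slc4a1 without replicate 2 of Eng-Flk1-; in the other 3 comparisons it gave 0. Of 353 alternative values of 14 member folds none reversed, 347 stayed on the same side of the threshold and 6 passed it. These folds were each gene's difference with the lowest p and any with an unadjusted limma p under 0.05. That choice favours a stable sign. Among folds not so chosen, Klf1 in Eng-Flk1+ against Eng-Flk1- was -1.40 in the main fit and 1.11 within a slide. Nfe2 in Eng+Flk1+ against Eng-Flk1+ was 0.21 and -0.65. The counts over all genes moved more: 6 (0 to 52) in Eng+Flk1+ against Eng-Flk1+, 331 (0 to 2832) in Eng+Flk1- against Eng-Flk1-, 435 (16 to 1056) in Eng-Flk1+ against Eng-Flk1-, 67 (12 to 214) in Eng+Flk1+ against Eng+Flk1-, 537 (0 to 2467) in Eng+Flk1+ against Eng-Flk1-, 23 (0 to 333) in Eng-Flk1+ against Eng+Flk1- and 62 (0 to 310) in the interaction. The slide as a fixed block gave the lowest count in each, and in Eng+Flk1+ against Eng-Flk1+ 5 other settings also gave 0. Slide and fraction were nearly confounded. The 3 Eng-Flk1- arrays shared a slide only with replicate 1 of Eng-Flk1+, and the 3 Eng+Flk1- arrays only with replicate 3 of Eng+Flk1+. With a fixed slide block, comparisons with these 2 fractions rest on such single linking arrays, so calls lost under it do not show that a difference is absent. Another scaling moved the median fold of all genes by up to -0.60 (the authors' median scaling, in Eng-Flk1+ against Eng-Flk1-). The cause of these changes was not tested. Folds within a slide and a fit without the 3 Eng-Flk1- arrays, in which 0 members were called, were chosen after seeing the data.

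Replicate numbers were not taken to pair the samples, since same-numbered arrays of 2 fractions correlated at only -0.09 to 0.13 in their deviations. With 3 arrays a fraction, such values cannot exclude a pairing. For Eng-Flk1+ with Eng+Flk1+, each of the 3 arrays correlated best with its own number (0.063, 0.13 and 0.05, against a mean of -0.04 for other numbers). With the number as a replicate block, 0 members were called in each comparison and in the interaction, and the count over all genes in Eng+Flk1+ against Eng+Flk1- was 23 in place of 67.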
